A study of Mus musculus with 9 samples.

Results

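Claudins are the membrane proteins that form the strands of tight junctions, and 10 claudin genes of the kidney tubule and glomerulus (Cldn1, Cldn2, Cldn3, Cldn4, Cldn7, Cldn8, Cldn10, Cldn12, Cldn16 and Cldn19) were followed through cisplatin kidney injury. They were taken by symbol from the 55385 gene rows of the deposited data, and all 10 were among the 13718 genes that passed the filter on low values (a level of 1 FPKM or more in 3 or more of the 9 libraries). The kidneys came from C57BL/6 mice, 3 biological repeats in each of 3 groups, and their RNA was sequenced in bulk. Sham mice received saline into the peritoneum, and the other mice received cisplatin, the platinum chemotherapy agent that is toxic to tubule cells, at 20 mg/kg by the same route, 3 or 7 days before. No genetic change is named for any group. The sources used here do not give the age or sex of the mice, the part of the kidney taken, or whether animals were pooled.

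Neighbouring epithelial cells are sealed by claudins, and the set of claudins that a cell makes decides which ions and how much water pass between the cells. Some claudins, such as claudin-2 in the proximal tubule, form pores, while others act mainly as barriers or shape the ion preference of a pore. Along the nephron the set changes: claudin-2, claudin-10 and claudin-12 in the proximal tubule, claudin-10, claudin-16 and claudin-19 in the thick ascending limb, claudin-3, claudin-4, claudin-7 and claudin-8 in the distal nephron and collecting duct, and claudin-1 in the parietal cells that line the glomerular capsule. FPKM, the fragment count of a gene divided by its transcript length and by the size of the library, is a level per length, so claudins can be set side by side within a library. Whole kidney was measured, so fewer cells of a type and less RNA per cell cannot be told apart for any gene described here.

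The FPKM of a library summed to between 421810 and 509537, with 11647 to 13183 genes at 1 FPKM or more. Without read counts the depth of a library is unknown, and no counting interval is given. Umod, the uromodulin gene that defines the thick ascending limb, stood at 894.46 to 1409.45 FPKM in the sham libraries. One sham library stood apart for the claudins. Sham library 1 had Cldn2 at 0.03 FPKM, against 139.88 and 173.03 in the other sham libraries. Cldn2 was 1 of 5 genes that lay under 1% of both other sham libraries there, counting genes with at least 10 FPKM in both, and the other 8 libraries held 0 to 4 such genes when set against their own group. Another of the 5 was Nnt, a mitochondrial transhydrogenase, whose 2 overlapping annotated gene records held opposite values: the record at 29.29 and 31.79 FPKM in sham libraries 2 and 3 was listed at 0 in library 1, and the record at 0.23 and 0.43 was at 11.16. Of the protein-coding neighbours of Cldn2, Morc4 on one side was at 1.25, 1.38 and 1.41 FPKM in sham libraries 1, 2 and 3, and on the other side Ripply1 was at 0.25, 0 and 0.08 and Tbc1d8b, beyond it, at 1.12, 0.87 and 1.29. Sham library 1 was also the highest of the sham libraries for 7 of the 10 claudins. The share of all genes highest in it was not counted, and it had the largest FPKM sum (509537), so this count is not read as particular to the claudins. Markers of urothelium, the lining of the renal pelvis, summed highest in sham library 1 too, and their sum was highest in replicate 1 of each group. The sum over 9 markers was 85.27, 10.03 and 16.69 FPKM in sham libraries 1 to 3. It was 30.96, 13.20 and 9.88 at day 3, and 43.19, 9.58 and 5.04 at day 7. The marker Psca alone gave 60.31, 10.24 and 30.91 FPKM in the replicate 1 libraries of sham, day 3 and day 7. Not every marker followed the sum: Krt5 stood at 6.26, 6.25 and 6.64 FPKM at day 3. The markers of collecting duct principal cells summed to 494.98, 358.33 and 227.74 FPKM in sham libraries 1 to 3. Replicate 1 was again highest at day 3 (175.06, 128.10 and 76.99) and at day 7 (315.64, 189.21 and 173.71). Thick ascending limb markers also summed highest in sham library 1 (2069.48, 1798.44 and 1308.41 FPKM in sham libraries 1 to 3). Proximal tubule markers, in contrast, summed lowest there (1983.52, 3129.02 and 3456.35 FPKM). The part of these differences in the claudin values was not tested. Claudin changes whose call, sign or size (by over 1.5 times) turns on sham library 1 are given with and without it.

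The 10 claudin transcripts together summed to 190.44, 278.80 and 307.59 FPKM in the sham libraries, to 416.13, 394.49 and 379.57 at day 3, and to 304.97, 332.76 and 310.90 at day 7, values that are described here and were not tested. The makeup changed more than the sum. Cldn4 made up 9.32%, 2.31% and 1.81% of the claudin FPKM after saline, 50.3%, 61.9% and 60.8% at day 3, and 2.95%, 2.43% and 1.56% at day 7. Cldn2 and Cldn10 led in sham libraries 2 and 3 and in each day 7 library. Cldn10 took 35.8%, 25.2% and 25.1% after saline, 1.55%, 3.69% and 2.00% at day 3, and 28.2%, 24.8% and 27.7% at day 7. Without Cldn2 the shares of Cldn4 kept this order: among the other 9 claudins it took 4.14% to 9.32% after saline, 58.7% to 65.0% at day 3 and 2.94% to 4.82% at day 7.

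**Figure D1:**
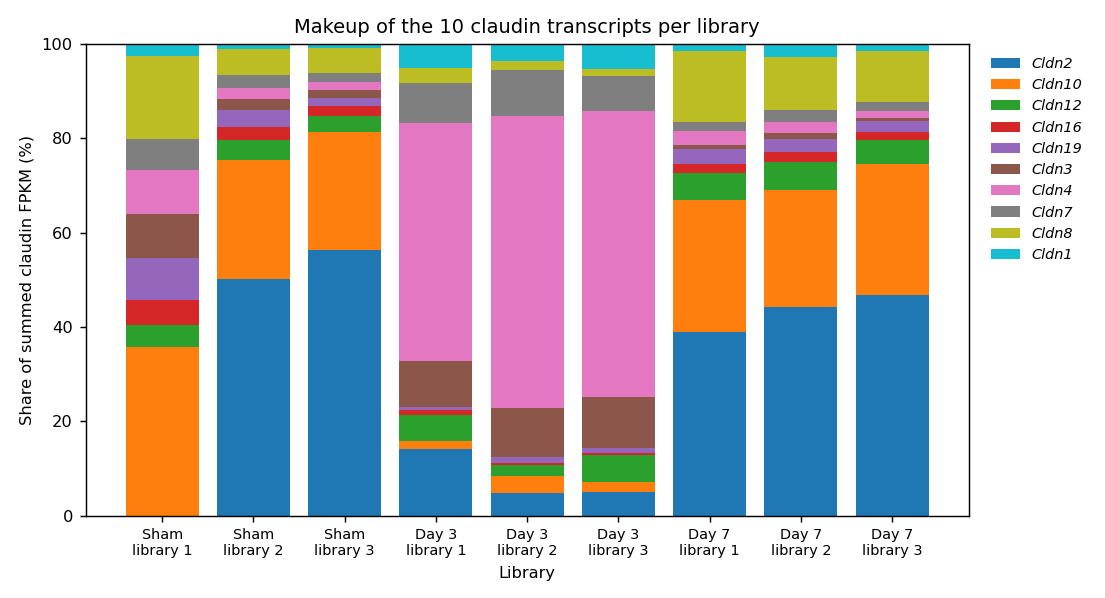
Makeup of the claudin transcripts: each bar is 1 library, and the coloured parts are the percent of the summed FPKM of the 10 claudins (y axis, 0 to 100%). Cldn4 fills 50.3% to 61.9% of the bars at day 3 and 1.56% to 9.32% of the others.

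By mean level the sham order was Cldn2, Cldn10, Cldn8, Cldn19, Cldn12, Cldn4, Cldn3, Cldn7, Cldn16 and Cldn1. Cldn10 (71.8 ± 4.71 FPKM, SD, n = 3) lay above Cldn8 (21.6 ± 10.5) without overlap, and Cldn16 (7.85 ± 1.81) above Cldn1 (3.52 ± 1.18). From Cldn8 to Cldn16 each gene overlapped its neighbour in the order, so the order within that stretch is not resolved. Over sham libraries 2 and 3 alone the means ran from Cldn2 (156 FPKM), Cldn10 (73.7) and Cldn8 (15.6) through Cldn12 (11.4), Cldn19 (7.45), Cldn7 (6.93), Cldn16 (6.87), Cldn4 (6.005) and Cldn3 (5.995) to Cldn1 (2.88), so that Cldn12 passed Cldn19, and Cldn7 and Cldn16 passed Cldn4 and Cldn3. At day 3 Cldn4 was first (228 ± 17.6), then Cldn3 (40.5 ± 0.286) and Cldn7 (34.2 ± 5.38), followed by Cldn2, Cldn1, Cldn12, Cldn10, Cldn8, Cldn19 and Cldn16. Cldn4, Cldn3 and Cldn7 did not overlap in that order, whereas the genes from Cldn7 to Cldn8 overlapped each with the next. At day 7 the order was Cldn2 (137 ± 16.1), Cldn10 (84.8 ± 2.09), Cldn8 (39.2 ± 6.28) and Cldn12 (17.6 ± 1.88), each above the next without overlap, then Cldn19, Cldn4, Cldn7, Cldn16 and Cldn1, which overlapped each with the next, and Cldn3 (2.84 ± 0.939) last and below all of them.

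**Figure D2:**
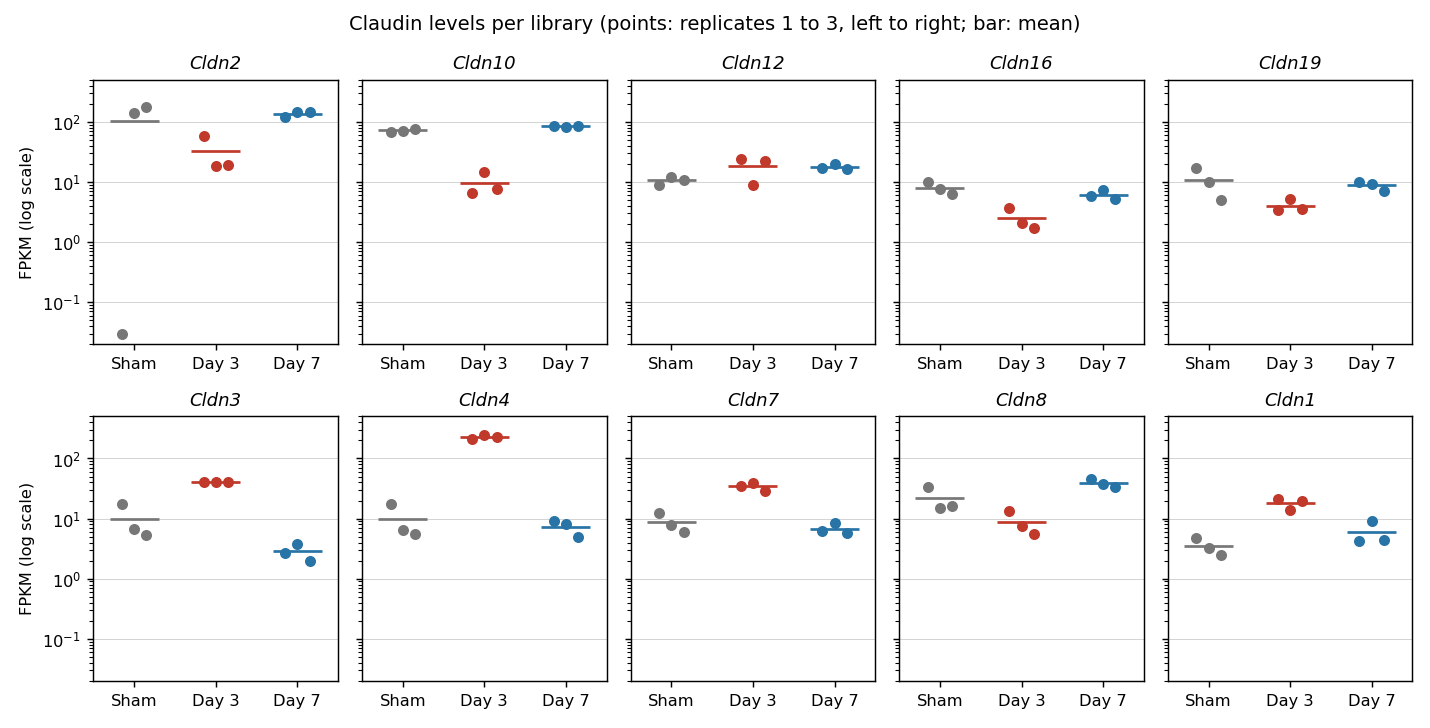
Levels of the 10 claudins: each panel is a gene, points are libraries (replicates 1 to 3 from left to right in each group), bars are group means, and the y axis is FPKM on a log scale. Cldn1, Cldn3, Cldn4 and Cldn7 lie highest at day 3, Cldn8, Cldn10, Cldn16 and Cldn19 have their lowest means there, and the sham library 1 value of Cldn2 (0.03 FPKM) lies far below all other points.

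At day 3, the earlier phase of injury, 4 of the 10 claudins were higher than in sham and 4 lower, tested with limma on log2(FPKM + 1) at an adjusted p of 0.05. Among all tested genes 59.9% passed that test (39.3% higher and 20.6% lower), so passing it was common among genes at large. The median log2 fold change was 0.30 over the claudins and 0.25 over all genes. Scaling the libraries by median of ratios moved the median of all genes to 0.03 and the split of calls from 5389 higher and 2825 lower to 4083 and 3951, and quantile normalization gave 4104 and 3905, but no claudin gained or lost its call under either. In 7 of 10 claudins the day 3 and sham libraries did not overlap, against 64.0% of all genes. Without sham library 1 the counts were again 4 and 4, with Cldn2 entering and Cldn19 leaving the lower genes.

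At day 7, the later phase, 1 of the 10 claudins was lower than in sham and none higher, with 29.7% of all genes past the test (19.3% higher and 10.4% lower). Both times are compared with the same 3 sham libraries. The median was 0.05 over the claudins and 0.06 over all genes. In 4 of 10 claudins the groups did not overlap, against 48.7% of all genes. For all genes the split of calls was 2646 higher and 1429 lower as deposited, 2245 and 2227 under median-of-ratios scaling, and 2243 and 2011 under quantile normalization, and again no claudin call changed. Without sham library 1 there was 1 claudin higher (Cldn8) and 1 lower (Cldn3).

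From day 3 to day 7, 4 claudins rose and 4 fell, with 55.4% of all genes past the test (21.7% higher and 33.7% lower). In 9 of 10 claudins the libraries of the 2 times did not overlap, against 64.4% of all genes, and the exception was Cldn12. The median was 0.50 over the claudins and -0.16 over all genes (-0.02 under both scalings, with splits of 3742 higher and 3744 lower under median of ratios and 3811 and 3845 under quantile normalization). No claudin call changed with the scaling.

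**Figure D3:**
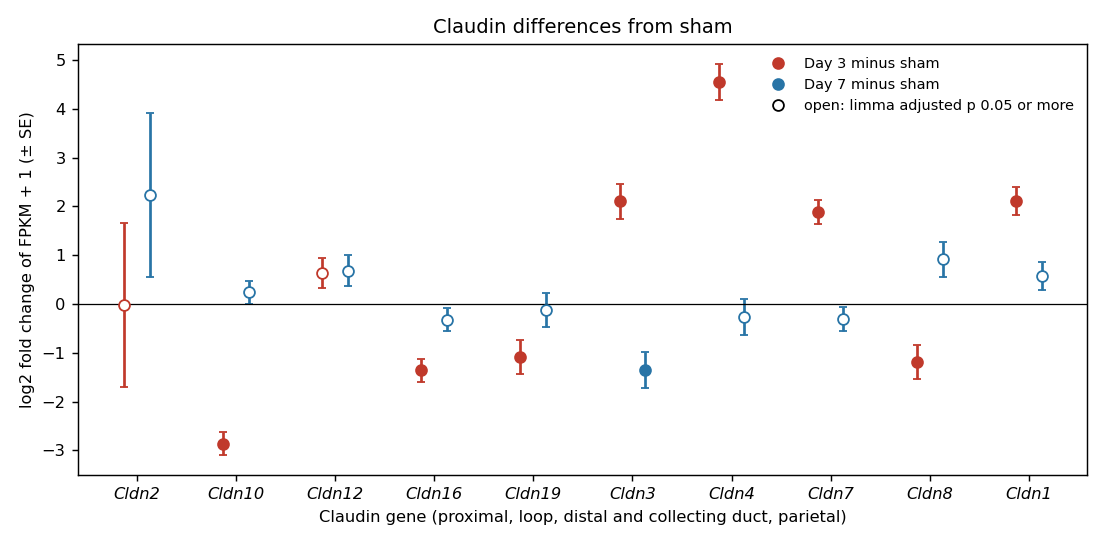
Differences of the 10 claudins from sham: the y axis is the log2 fold change of FPKM + 1 with its standard error, red at day 3 and blue at day 7, and open points have a limma adjusted p of 0.05 or more. At day 3 Cldn4 lies highest (4.56) and Cldn10 lowest (-2.86), and at day 7 only the point of Cldn3 (-1.36) is filled.

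Cldn4 and Cldn3 are neighbours on chromosome 5, with starts 39.3 kb apart on opposite strands, and both encode claudins of the distal nephron and collecting duct. Claudin-4 limits the passage of sodium between cells and takes part in that of chloride. Cldn4 (ENSMUSG00000047501, chr5:134945119-134946934, minus strand, GRCm38) stood at 17.75, 6.44 and 5.57 FPKM after saline, 209.48, 244.36 and 230.67 at day 3, and 8.99, 8.10 and 4.86 at day 7. Each day 3 library lay far above every library of the other groups. On the log2(FPKM + 1) scale it rose by 4.56 ± 0.37 at day 3 (SE; limma adjusted p = 2.45e-05), a 23.5-fold change, and it fell by 4.82 ± 0.37 from day 3 to day 7 (adjusted p = 2.19e-05). The day 7 libraries overlapped sham (-0.26 ± 0.37, adjusted p = 0.636), and without sham library 1 that difference was 0.21.

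Cldn3 (ENSMUSG00000070473, chr5:134986214-134987472, plus strand), a barrier-forming claudin, stood at 17.65, 6.71 and 5.28 FPKM after saline, 40.51, 40.27 and 40.84 at day 3, and 2.69, 3.85 and 1.99 at day 7. An antisense gene, Wbscr25, overlaps its end. The 3 groups did not overlap: day 3 was highest and day 7 lowest. The gene rose by 2.10 ± 0.36 at day 3 (limma adjusted p = 0.00112) and fell by 3.46 ± 0.36 from day 3 to day 7 (adjusted p = 9.80e-05). At day 7 it was the 1 claudin below sham, having fallen by 1.36 ± 0.36 (adjusted p = 0.0235). That call was lost with no filter (adjusted p = 0.0625), in a fit of the 6 libraries compared (0.0570), and without day 7 library 1 (0.0640) or 3 (0.0796). Without sham library 1 it fell by 0.88, over 1.5 times less, and kept its call (adjusted p = 0.0174).

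Cldn7 (ENSMUSG00000018569, chr11:69964779-69967885, plus strand) encodes a claudin of the basolateral membrane and junction of distal tubule cells, which binds the adhesion protein EpCAM. It stood at 12.48, 7.89 and 5.97 FPKM after saline, 35.39, 38.91 and 28.34 at day 3, and 6.13, 8.31 and 5.69 at day 7. Day 3 lay above both other groups, which overlapped each other. It rose by 1.89 ± 0.25 at day 3 (limma adjusted p = 0.000235), fell by 2.19 ± 0.25 from day 3 to day 7 (adjusted p = 0.000131), and differed from sham by -0.30 ± 0.25 at day 7 (adjusted p = 0.384; -0.045 without sham library 1).

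Cldn8 (ENSMUSG00000050520, chr16:88560828-88563183, minus strand), whose protein recruits claudin-4 to the junctions of collecting duct cells, moved the other way. It stood at 33.71, 14.92 and 16.20 FPKM after saline, 13.38, 7.59 and 5.46 at day 3, and 46.09, 37.65 and 33.82 at day 7. The order of the groups was day 3, sham and day 7 from low to high, with no overlap between any pair. It fell by 1.19 ± 0.35 at day 3 (limma adjusted p = 0.0176), a call lost without day 3 library 2 (0.0516) or 3 (0.0620), and rose by 2.10 ± 0.35 from day 3 to day 7 (adjusted p = 0.00111). At day 7 it was 0.91 ± 0.35 from sham without passing the test (adjusted p = 0.0837), and it passed without sham library 1 (1.27, adjusted p = 0.0219). Thus Cldn4 and Cldn8, whose proteins work as partners in the collecting duct, changed in opposite directions at day 3 and again from day 3 to day 7.

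The stretches before the starts of the genes that rose at day 3, and of Cldn16, the neighbour of Cldn1 that fell, are shown because these genes lie in pairs or moved together. Each is the 250 bases before the RefSeq start on GRCm38.p6, 5′ to 3′ on the gene's own strand, and capitals mark matches to the motifs searched.
Cldn4 (chr5:134946935-134947184, minus): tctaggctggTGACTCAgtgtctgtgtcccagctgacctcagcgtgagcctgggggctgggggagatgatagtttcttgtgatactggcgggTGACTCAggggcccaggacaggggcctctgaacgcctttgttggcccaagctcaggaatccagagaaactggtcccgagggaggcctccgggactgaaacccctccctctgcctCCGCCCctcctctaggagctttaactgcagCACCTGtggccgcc
Cldn3 (chr5:134985964-134986213, plus): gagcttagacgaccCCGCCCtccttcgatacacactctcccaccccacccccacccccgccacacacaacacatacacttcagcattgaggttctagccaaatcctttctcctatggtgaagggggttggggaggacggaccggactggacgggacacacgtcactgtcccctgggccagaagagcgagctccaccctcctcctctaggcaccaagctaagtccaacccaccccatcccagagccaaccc
Cldn7 (chr11:69964529-69964778, plus): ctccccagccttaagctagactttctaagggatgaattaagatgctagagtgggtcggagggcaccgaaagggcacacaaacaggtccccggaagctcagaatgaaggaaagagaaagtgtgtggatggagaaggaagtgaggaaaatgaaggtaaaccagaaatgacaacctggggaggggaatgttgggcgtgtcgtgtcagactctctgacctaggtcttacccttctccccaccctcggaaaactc
Cldn1 (chr16:26371840-26372089, minus): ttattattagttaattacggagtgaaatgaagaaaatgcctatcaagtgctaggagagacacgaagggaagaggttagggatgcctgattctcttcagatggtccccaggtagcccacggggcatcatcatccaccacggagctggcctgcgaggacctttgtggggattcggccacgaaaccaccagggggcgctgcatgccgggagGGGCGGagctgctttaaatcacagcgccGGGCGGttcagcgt
Cldn16 (chr16:26462885-26463134, plus): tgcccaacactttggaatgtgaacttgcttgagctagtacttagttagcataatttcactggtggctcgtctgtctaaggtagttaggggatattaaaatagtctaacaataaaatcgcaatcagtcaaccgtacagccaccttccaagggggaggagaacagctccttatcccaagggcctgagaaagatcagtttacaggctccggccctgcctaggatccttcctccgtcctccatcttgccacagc
Searched on both strands, with matches allowed to overlap, were the AP-1 element TGANTCA, the GC box GGGCGG, the E-box CAGGTG, the grainyhead element AACNGGTT and the TATA box TATAAA. The Cldn4 window held 2 AP-1 matches, which begin 240 and 158 bases before the start, a GC box at 44 and an E-box at 14. An AP-1 match was found in 6.73% of 32536 RefSeq windows of the same length, a GC box in 33.0%, an E-box in 17.3%, a grainyhead element in 1.79% and a TATA box in 12.3%. The Cldn3 window held a GC box 236 bases before the start, the Cldn1 window GC boxes at 42 and 14, and the Cldn7 and Cldn16 windows none of the 5 motifs. RefSeq gives Cldn7 a second start, whose window (chr11:69965171-69965420) held 1 GC box and 2 E-boxes. Of the 10 claudins 9 matched a window, 14 windows in all, and Cldn4 was the 1 claudin among them with an AP-1 match. A match is a description of the letters, and binding was not measured.

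Cldn1 (ENSMUSG00000022512, chr16:26356642-26371841, minus strand) encodes the claudin of the parietal cells of the glomerulus, and it too rose at day 3. It stood at 4.81, 3.26 and 2.49 FPKM after saline, 21.15, 13.92 and 19.98 at day 3, and 4.23, 9.01 and 4.44 at day 7. Day 3 lay above all other libraries, and day 7 overlapped sham. It rose by 2.11 ± 0.29 at day 3 (limma adjusted p = 0.000329) and fell by 1.54 ± 0.29 from day 3 to day 7 (adjusted p = 0.00212), with 0.57 ± 0.29 between day 7 and sham (adjusted p = 0.171). Of 3 parietal cell markers, Ncam1 did not pass the filter, Pax2 did not pass the test at day 3 (-0.58 ± 0.31, adjusted p = 0.132) and Akap12, a kinase anchor protein, rose by 4.78 ± 0.29 (adjusted p = 7.51e-06). The 5 podocyte markers, from the same glomeruli, summed to 88.33 to 104.68 FPKM after saline, 45.05 to 93.75 in the day 3 libraries and 77.95 to 107.55 in those of day 7.

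In the proximal tubule Cldn2 encodes the pore through which sodium and water pass between cells. Cldn2 (ENSMUSG00000047230, chrX:139800828-139811386, plus strand) stood at 0.03, 139.88 and 173.03 FPKM after saline, 59.08, 18.67 and 19.24 at day 3, and 118.52, 147.24 and 145.50 at day 7. The day 7 libraries lay above all day 3 libraries, and sham spanned both. With all libraries it did not pass the test in any comparison: -0.03 ± 1.68 at day 3 (limma adjusted p = 0.991), 2.23 ± 1.68 at day 7 (0.351) and 2.25 ± 1.68 from day 3 to day 7 (0.283). These results turn on sham library 1. Without it Cldn2 fell by 2.44 at day 3 (adjusted p = 0.00233), rose by 2.25 from day 3 to day 7 (0.00209), and differed from sham by -0.19 at day 7 (0.794), and in a fit of the 6 cisplatin libraries alone it also rose between the times (0.00455). The sign of its day 3 value depended on the setting: it was 0.92 with a pseudocount of 0.1 and 0.0077 after quantile normalization.

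Cldn12 (ENSMUSG00000046798, chr5:5489537-5514958, minus strand), whose protein takes part in calcium passage in the proximal tubule, passed the test in no comparison. It stood at 9.02, 12.01 and 10.71 FPKM after saline, 23.61, 9.01 and 22.21 at day 3, and 16.90, 19.69 and 16.11 at day 7. Day 3 library 2 lay just under the lowest sham value, while day 3 libraries 1 and 3 and all day 7 libraries were above sham. The differences were 0.64 ± 0.31 at day 3 (limma adjusted p = 0.107), 0.68 ± 0.31 at day 7 (0.129) and 0.05 ± 0.31 from day 3 to day 7 (0.904). Without day 3 library 2 it passed at day 3 (1.05, adjusted p = 0.000991) and at day 7 (0.0112), and it passed at day 7 in the fit of 6 libraries (0.0143).

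Cldn10 (ENSMUSG00000022132, chr14:118787908-118875489, plus strand) encodes several isoforms from different starts. One class favours anions and lies in the proximal tubule, and the other favours cations and carries sodium in the thick ascending limb. The gene row adds both classes, so they could not be separated. It stood at 68.11, 70.26 and 77.13 FPKM after saline, 6.47, 14.54 and 7.60 at day 3, and 85.86, 82.43 and 86.22 at day 7. Sham and day 7 were tight groups and day 3 lay far below both. Cldn10 fell by 2.86 ± 0.24 at day 3 (limma adjusted p = 2.62e-05) and rose by 3.10 ± 0.24 from day 3 to day 7 (adjusted p = 2.09e-05). At day 7 every library was above sham by a small amount (0.24 ± 0.24, adjusted p = 0.486).

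Cldn16 and Cldn19 encode partner claudins of the thick ascending limb that are needed for the reabsorption of calcium and magnesium there. Cldn16 (ENSMUSG00000038148, chr16:26463135-26482765, plus strand), whose start lies 91.3 kb from that of Cldn1, stood at 9.80, 7.52 and 6.22 FPKM after saline, 3.62, 2.10 and 1.73 at day 3, and 5.78, 7.28 and 5.10 at day 7. Day 3 lay below both other groups. It fell by 1.36 ± 0.23 at day 3 (limma adjusted p = 0.000942), rose by 1.04 ± 0.23 from day 3 to day 7 (adjusted p = 0.00440) and differed from sham by -0.32 ± 0.23 at day 7 (adjusted p = 0.325; -0.16 without sham library 1).

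Cldn19 (ENSMUSG00000066058, chr4:119255414-119262438, plus strand) stood at 17.08, 9.91 and 4.99 FPKM after saline, 3.44, 5.12 and 3.50 at day 3, and 9.78, 9.20 and 7.17 at day 7. Day 3 library 2 overlapped sham library 3, and day 7 lay above day 3. It fell by 1.09 ± 0.35 at day 3 (limma adjusted p = 0.0242), rose by 0.96 ± 0.35 from day 3 to day 7 (adjusted p = 0.0434) and differed from sham by -0.13 ± 0.35 at day 7 (adjusted p = 0.806; 0.26 without sham library 1). The day 3 call was lost with no filter (adjusted p = 0.0514), with 6 libraries (0.0507), and without sham library 1 (-0.70, adjusted p = 0.0549), sham library 2 (0.0630), day 3 library 1 (0.0676) or day 3 library 3 (0.0678). The call between the times was lost with no filter (adjusted p = 0.0830) and without sham library 2 (0.0609), day 3 library 1 (0.106), 2 (0.0517) or 3 (0.110), or day 7 library 1 (0.114), 2 (0.101) or 3 (0.0610). An antisense gene, Gm12927, overlaps Cldn19 at 0.29 to 2.52 FPKM, and the sources used here do not say whether the counting used strand.

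To see whether each claudin moved as other genes of its segment did, the mean log2(FPKM + 1) of the segment's markers was subtracted in each library, which gave 30 comparisons of 10 claudin and segment pairs. With 3 libraries against 3 the exact two-sided permutation test cannot go below p = 0.1, which is 0.167 after Benjamini-Hochberg adjustment over the 30 (0.4 becomes 0.571 and 0.9 becomes 1.0), so none could pass and the values are given with their overlap. The markers themselves were lower at day 3: 10 of 12 proximal tubule, 10 of 10 thick ascending limb and 5 of 9 principal cell markers fell, and none rose (20.6% of all tested genes fell and 39.3% rose). At day 3 the pairs in which groups did not overlap numbered 7 of 10, against 3 at day 7 and 8 between the times. By FPKM alone the groups did not overlap in 64.0%, 48.7% and 64.4% of all tested genes. No such count was made for other genes relative to markers, and a shift of the markers alone can part the groups. These counts are therefore not read as particular to the claudins.

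Relative to principal cell markers Cldn4 stood at -0.53, -1.40 and -1.13 after saline, 4.09, 4.85 and 5.21 at day 3, and -1.10, -0.74 and -1.18 at day 7. The mean difference at day 3 was 5.74 for Cldn4, 3.28 for Cldn3 and 3.07 for Cldn7 (each exact permutation p = 0.1, the smallest possible). Cldn8 differed by -0.01 at day 3 (exact permutation p = 1.0), with 0.35, -0.30 and 0.26 in sham and 0.21, 0.01 and 0.05 at day 3. It was at 1.14, 1.35 and 1.39 at day 7, above sham by 1.19 (exact permutation p = 0.1). So the fall of Cldn8 at day 3 was about the mean fall of its segment's markers in these libraries, while at day 7 it stood above their mean. The 9 markers did not share 1 size of fall: at day 3 they ranged from -3.78 to 0.18, and 4 did not pass the test. Cldn3 at day 7 lay 1.08 below sham on this scale (-1.08, exact permutation p = 0.1).

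Relative to thick ascending limb markers Cldn16 was 1.05 and Cldn19 1.32 higher at day 3 than in sham (each exact permutation p = 0.1). Both had fallen in FPKM, but by less than the mean of the markers on the log2(FPKM + 1) scale. The marker that changed least differed by -0.75, less than either claudin. Cldn10 differed by -0.45 from those markers (exact permutation p = 0.1), a value that was 0.0042 when the median of the markers was used, and by -0.10 from the proximal tubule markers (exact permutation p = 0.9). Cldn12 was 3.40 higher relative to proximal tubule markers at day 3 (exact permutation p = 0.1). Cldn2 relative to them stood at 2.45, 0.61 and 0.24 at day 3, against 0.47 and 0.53 in sham libraries 2 and 3 and -5.92 in library 1 (difference 2.74, exact permutation p = 0.4). At day 7 Cldn16 differed from sham by -0.53 relative to thick ascending limb markers, without overlap (exact permutation p = 0.1).

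**Figure D4:**
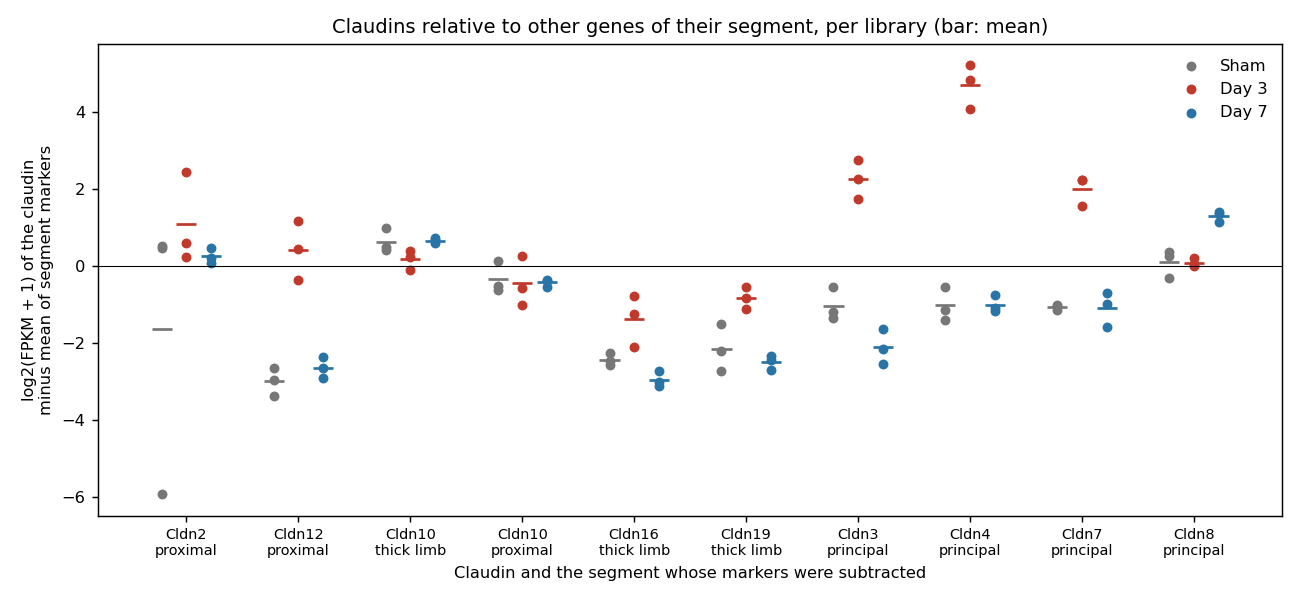
Claudins relative to their segment: points are libraries, bars are group means, and the y axis is log2(FPKM + 1) of the claudin minus the mean over markers of the segment named under it. At day 3 Cldn3, Cldn4 and Cldn7 lie above sham by 3.28, 5.74 and 3.07, while Cldn8 differs by -0.01.

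Markers of injured tubule cells rose in the same day 3 libraries: 10 of 12 were higher than in sham and none lower (39.3% and 20.6% of all tested genes), with a median of 3.09. Sox9, 1 of the 10, passed the filter through its day 3 values alone. Krt20 and Vcam1 reached 1 FPKM outside day 3 only in day 7 library 2 (4.34 and 7.63). They too needed their day 3 values to pass the filter. The 12 summed to 417.64 to 870.72 FPKM after saline, 8899 to 13626 at day 3 and 655.17 to 2002 at day 7. Among 6 tested urothelium markers 1 rose at day 3, the basal keratin gene Krt5 (1.94, limma adjusted p = 0.000293), and none fell. Outside day 3 Krt5 reached 1 FPKM only in sham library 1 (1.75), so its call follows in part from the filter. The 3 other markers (Upk3b, Krt14 and Trp63) did not pass the filter. Upk2, a defining urothelial gene, was at 3.48, 0.60 and 1.17 FPKM after saline and 1.66, 0.52 and 0 in the day 3 libraries. The part of injured cells or of urothelium in the claudin values was not tested.

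Outside these 10 genes the mouse has further claudins, of which 13 matched a row and 4 passed the filter. Cldn23 and Cldn6 passed it through their day 3 values alone, so that they differ there follows from the filter. Cldn23, a claudin known from gut and skin, stood at 0.10, 0.12 and 0.11 FPKM after saline, 3.09, 4.24 and 3.87 at day 3, and 0.19, 0 and 0.05 at day 7 (2.08 ± 0.13 at day 3, limma adjusted p = 7.19e-06). Cldn6, a claudin of embryonic epithelia, stood at 0.21, 0.42 and 0.50 FPKM after saline, 1.49, 1.98 and 2.73 at day 3, and 0.15, 0.25 and 0.28 at day 7 (1.14 ± 0.16, adjusted p = 0.000377). Cldn5, the endothelial claudin, did not pass the test against sham (at day 7 -0.99 ± 0.34, adjusted p = 0.0579, and 0.0365 and 0.0459 under the 2 scalings) and fell by 1.20 ± 0.34 from day 3 to day 7 (adjusted p = 0.0156), from 5.47, 16.04 and 11.29 to 3.69, 4.55 and 3.30 FPKM. Cldn15, a cation pore of the intestine, passed in no comparison. Cldn14, which blocks the thick ascending limb pore and answers to the calcium-sensing receptor, did not pass the filter, at 0 to 0.10 FPKM in every library.

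The other proteins of the tight junction were read next, as 22 genes for membrane partners, scaffolds and polarity proteins, all tested. At day 3, 13 rose and 4 fell, where 39.3% of all tested genes rose and 20.6% fell, so the count that fell is near the general rate. The median log2 fold change was 0.86 (0.25 over all genes). Under the 2 scalings 12 rose and 5 or 6 fell, with medians of 0.58 and 0.71. Ocln, which encodes occludin, rose most, from 4.50, 3.53 and 3.73 FPKM after saline to 15.71, 15.08 and 13.86 (1.69 ± 0.11, limma adjusted p = 9.09e-06). Tjp1, which encodes the ZO-1 scaffold that binds claudin tails, rose by 1.55 ± 0.19 (limma adjusted p = 0.000189) and the adhesion molecule gene Jam2 by 1.33 ± 0.35 (adjusted p = 0.00924). The 4 that fell were the polarity genes Pard3 (-0.78 ± 0.14) and Patj (-0.35 ± 0.12), the paracingulin gene Cgnl1 (-0.72 ± 0.10) and the adhesion gene Jam3 (-0.63 ± 0.18).

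At day 7, 6 of the 22 were higher than in sham and 1 lower (median 0.22, and 0.06 over all genes), with 6 and 2 under both scalings. Of all tested genes 19.3% were higher and 10.4% lower, and these counts are not read as particular to the list. Magi3 (0.78 ± 0.19, limma adjusted p = 0.0168), Cgnl1 (0.70 ± 0.10, adjusted p = 0.00250), Prkci, an atypical protein kinase C of cell polarity (0.66 ± 0.14, adjusted p = 0.0103), Tjp1 (0.64 ± 0.19, adjusted p = 0.0371), Mpdz and Ocln were higher. Mpdz, a polarity scaffold gene, passed the filter through its day 7 values alone (1.40, 1.69 and 1.55 FPKM, against 0.48 to 0.78 in the other 6 libraries), so its call follows in part from the filter. Ybx3, whose protein ZONAB is held at the junction by ZO-1, was lower (-0.72 ± 0.18, adjusted p = 0.0174). Cgnl1 thus went from 38.88, 39.65 and 38.00 FPKM after saline to 26.05, 21.55 and 21.97 at day 3 and 64.92, 65.41 and 61.09 at day 7, with no overlap between the groups. Of the 22, 6 rose and 11 fell from day 3 to day 7 (median -0.56), beside 21.7% and 33.7% of all tested genes.

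**Figure D5:**
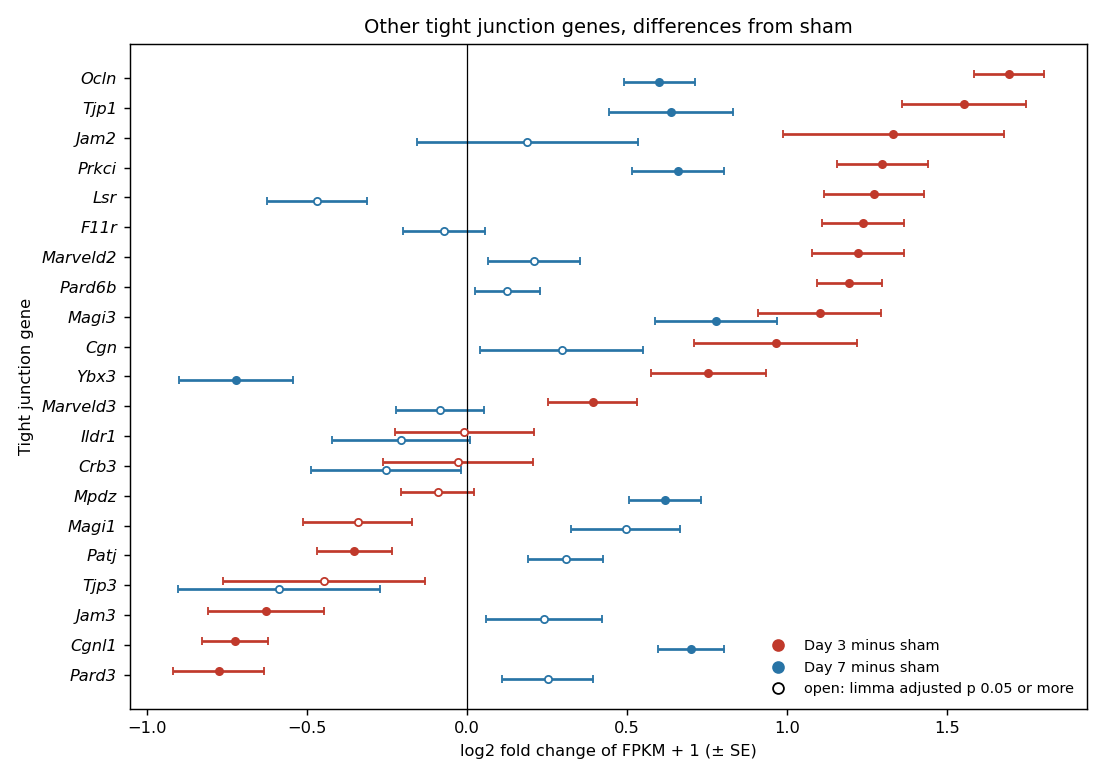
Other tight junction genes: the x axis is the log2 fold change of FPKM + 1 from sham with its standard error, red at day 3 and blue at day 7, and open points have a limma adjusted p of 0.05 or more. Of the 22 genes counted 1 is not drawn. At day 3 most filled points lie to the right of 0 and 4 to the left, with Ocln first (1.69) and Pard3 last (-0.78).

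Among 15 genes of adherens junctions and desmosomes, the cell contacts below the tight junction, 11 rose at day 3 and 1 fell (median 0.94; 39.3% and 20.6% of all tested genes), with 9 and 1 under median-of-ratios scaling and 10 and 1 under quantile normalization. Epcam, whose protein binds claudin-7, went from 54.82, 29.38 and 21.62 to 82.50, 92.07 and 77.18 FPKM (1.33 ± 0.32, limma adjusted p = 0.00597), with each day 3 library above every sham library. Pkp2, a desmosomal plakophilin, rose by 1.40 ± 0.19 and the nectin gene Nectin2 by 1.38 ± 0.22. The 1 that fell was Cdh16, the kidney-specific cadherin (-1.21 ± 0.14, adjusted p = 0.000119). The desmocollin gene Dsc2, 1 of the 11, passed the filter through its day 3 values alone (1.36, 1.52 and 1.68 FPKM, against 0.24 to 0.83 in the other 6 libraries). The cadherin gene Cdh6, also 1 of the 11, reached 1 FPKM outside day 3 only in day 7 libraries 1 and 2 (1.02 and 1.56). It too needed its day 3 values (1.02, 1.81 and 2.98 FPKM) to pass the filter. At day 7, 2 of the 15 were higher than in sham and none lower, with 19.3% and 10.4% of all tested genes. They were Ctnnb1, the beta-catenin gene (0.75 ± 0.11, limma adjusted p = 0.00256), and Dsc2 (0.43 ± 0.12, adjusted p = 0.0252). Dsc2 did not pass under quantile normalization (0.0696) or without sham library 1 (0.0571). Without that library 3 of the 15 were higher and 1 lower. Cdh1 (limma adjusted p = 0.00893) and Dsp (0.0382) then passed as higher and Jup (0.0181) as lower.

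Of 10 genes that act on claudins or paracellular transport of the distal nephron, 4 rose and 5 fell at day 3 (median -0.75), and 2 and 6 under median of ratios, 3 and 6 under quantile normalization. With 39.3% of all tested genes higher and 20.6% lower, the 4 that rose are no more than the general rate. Klhl3, the adaptor that marks claudin-8 and WNK kinases for degradation, went from 6.77, 5.45 and 7.41 FPKM after saline to 0.63, 0.50 and 0.35 at day 3 and 7.35, 6.68 and 8.07 at day 7 (-2.33 ± 0.14 at day 3, limma adjusted p = 6.29e-06). Wnk4, a kinase that phosphorylates claudins, fell by 1.20 ± 0.21 (adjusted p = 0.00112), the parathyroid hormone receptor gene Pth1r by 3.62 ± 0.25 (1.19e-05), the protease gene Prss8 by 2.12 ± 0.21 (5.71e-05) and Casr, the calcium-sensing receptor gene, by 1.69 ± 0.15 (3.41e-05). Sgk1, an aldosterone-induced kinase, rose by 1.58 ± 0.33 (adjusted p = 0.00304) and the protease gene St14 by 1.42 ± 0.24 (0.00103). Cul3 and Stk39 rose as deposited (0.59 ± 0.15 and 0.53 ± 0.16), but neither passed under median-of-ratios scaling. At day 7, 4 were higher and 1 lower (19.3% and 10.4% of all tested genes): Cul3, the ubiquitin ligase scaffold that works with Klhl3 (0.91 ± 0.15), Wnk1 (0.76 ± 0.16) and Stk39 (0.70 ± 0.16) were higher, Prss8 was lower (-0.99 ± 0.21), and Casr was higher (0.51 ± 0.15, adjusted p = 0.0330) but not under either scaling.

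For each claudin the genes of most similar pattern were found among 6233 genes with a mean of at least 5 FPKM, by the root mean square difference of log2(FPKM + 1), centred on the sham mean, over the 9 libraries. The closest to Cldn4 was Akap12 (0.38), at 4.94, 3.26 and 2.57 FPKM after saline, 125.62, 103.30 and 141.26 at day 3, and 2.82, 5.58 and 2.06 at day 7, and then Plaur, the urokinase receptor gene (0.40). Closest to Cldn3 were Sh3bgrl3 (0.24) and S100a11 (0.28), to Cldn7 B4galnt1 (0.18) and Fbxw9 (0.19), and to Cldn1 Rcn1 (0.21) and Tes (0.23). Cldn8 was closest to Clpx (0.27) and Crot (0.28), genes of mitochondria and peroxisomes, which were also lowest at day 3 and highest at day 7. For Cldn10 these were Slc6a20b (0.19) and Atp4a (0.30), for Cldn16 Lzts3 (0.13) and Slc35f2 (0.14), for Cldn19 Tmed1 (0.26) and Pou3f3 (0.27), and for Cldn12 Fgfr1op2 (0.15) and Pam (0.24). Cldn2 had no close match over the 9 libraries: the nearest were Nnt (0.86) and Idi1 (1.44), both also lowest in sham library 1. The low Cldn2 value of that library enters both the centring and the distance, so this result follows in part from it. No match was sought without that library.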

How the data were processed

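RNA was extracted from kidneys with TRIzol and made into libraries with a directional kit, per the labels' protocols. The authors deposited 1 FPKM value per gene and library. Per the submitters' processing notes, the tools were HISAT, StringTie and FastQC 0.10.1 and the build GRCm38, with no step assigned to any. Aligner settings, annotation release and use of strand: not given in the sources used here. Each library is scaled to its own total, so abundant transcripts that rise push the FPKM of others down, and the precision of low values is unknown.

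Gene IDs were matched to GENCODE M21 on GRCm38 (55144 of 55385 rows have a symbol). Tests used log2(FPKM + 1), a scale that understates changes of low genes. A limma model (3.58.1, R 4.3.3) with 3 groups was fitted to all 9 libraries for the 13718 genes that reached 1 FPKM in 3 or more libraries, with eBayes and a mean-variance trend. Two-sided p-values were adjusted by Benjamini-Hochberg over all 13718 genes, at a threshold of 0.05. The model was tested on simulated data. Biological repeats are stated without more detail, so p-values measure the spread between these libraries.

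The 10 claudins, the gene lists and the tests were chosen with earlier results of these data known. Named besides the 10 were the other claudins past the filter, up to 4 genes past the test per list and comparison, from the largest change down where a group mean reached 1 FPKM, and the 2 genes of most similar pattern per claudin. Predicted genes and pseudogenes were left out of the last. Of the genes that the rule names, 2 are not reported here. Other genes named, the motifs and the makeup without Cldn2 were chosen after values were seen. Windows before gene starts came from RefSeq on GRCm38.p6. The alternatives tried were another pseudocount (0.1), no filter or one at 5 FPKM, both scalings, 6 libraries, a replicate block, leaving out each library, and the median over segment markers.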

Additional observations from a re-analysis of the deposited data

How the results depend on the processing

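Over the 10 claudins and 3 comparisons, 441 alternative values kept their direction and their side of the threshold, 20 were no longer called, 8 became called and 11 turned their sign. The cause was not tested where none is shown. Claudins lower at day 3 numbered 4, and 3 with no filter, 3 in 6 libraries and 2 to 4 when a library was left out (2 without day 3 library 3). Claudins higher than sham at day 7 numbered 0, and 1 with the replicate block, 1 in 6 libraries and 0 to 1 when a library was left out (1 without sham library 1 or day 3 library 2). Claudins lower at day 7 numbered 1, and 0 with no filter, 0 in 6 libraries and 0 to 1 when a library was left out (0 without day 7 library 1 or 3).

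The sign turned for values that had not passed the test. For Cldn2 at day 3 it was 0.92 (pseudocount 0.1), 0.0077 (quantile normalization), 1.11 and 1.26 (without sham library 2 or 3), and 0.25 and 0.23 (without day 3 library 2 or 3), over a range of -2.44 to 1.26 when a library was left out. Without sham library 1 the day 7 values were -0.19 for Cldn2, 0.21 for Cldn4 and 0.26 for Cldn19, ends of ranges from -0.19 to 3.51, -0.54 to 0.21 and -0.54 to 0.26. Cldn12 from day 3 to day 7 was -0.37 without day 3 library 2 and -0.03 without day 7 library 2 (range -0.37 to 0.28). Relative to segment markers, the median over markers gave 0.0042 for Cldn10 in the thick ascending limb at day 3, 0.065 for Cldn10 in the proximal tubule at day 7, -0.25 for Cldn4 at day 7 and 0.15 for Cldn8 at day 3. A pseudocount of 0.1 gave 0.054 for Cldn8 at day 3 and -0.044 for Cldn10 in the proximal tubule from day 3 to day 7.

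The replicate numbers are not known to pair the libraries. Same-numbered deviations correlated at 0.09, -0.01 and 0.14 between sham and day 3. They correlated at 0.19, -0.01 and 0.24 between sham and day 7, and 0.03, 0.01 and -0.05 between day 3 and day 7. Differently numbered deviations ran from -0.28 (sham library 1 and day 7 library 3) to 0.11 (sham library 2 and day 7 library 3). In both comparisons with sham the highest values were those of library 1 with 1 and 3 with 3. Whether same-numbered libraries belong together is not settled by these values. With the replicate block 8212, 3885 and 7540 genes passed at day 3, day 7 and between them, against 8214, 4075 and 7603, and the 1 claudin call that changed was Cldn8 at day 7 (adjusted p = 0.0149). A filter at 5 FPKM tested 7692 genes, so fewer could pass (5104 at day 3 and 4973 from day 3 to day 7). At day 7, 2470 to 2699 genes passed without sham library 2 or any 1 of the day 7 libraries. Unknown depth limits what can be said of claudins under 1 FPKM.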
